A study of Bos taurus with 138 samples.

Results

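Poly(A) binding proteins coat the tail of an mRNA, and their partner proteins set how that tail acts on translation and decay. The members examined here were 4 such proteins and 3 of their interacting proteins, PABPC1, PABPC1L, PABPC4, PABPN1, PAIP1, PAIP2 and PAIP2B, chosen by name as 7 of the 16706 gene symbols of the count table. All 7 had an entry, and all 7 were among the 14612 genes that passed the filter on low counts.

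Cytoplasmic poly(A) binding proteins bridge the tail to the initiation factor eIF4G at the cap, which promotes initiation, and they also recruit deadenylases. In vertebrates PABPC1L, also called embryonic poly(A) binding protein, is known as the form of oocytes and cleavage embryos, PABPC1 as the main form of somatic cells, and PABPC4 as a further cytoplasmic form. PABPN1 is nuclear and sets tail length during polyadenylation. PAIP1 is an eIF4G-like protein that binds PABP and stimulates translation, whereas PAIP2 and its paralogue PAIP2B compete with eIF4G and with poly(A) for PABP and repress it.

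RNA was sequenced from bovine (Bos taurus) GV and MII oocytes and from 2-cell, 8-cell, morula and blastocyst embryos. The oocytes came from slaughterhouse ovaries, were matured in vitro to MII, and were fertilized in vitro with semen of a single Holstein bull, so all embryos shared that sire. At each stage pooled oocytes or embryos were lysed in cycloheximide, which holds ribosomes on mRNA, and separated on 2 sucrose gradients (A and B) into 10 fractions. Here F1-F2 are called free RNA, F3-F5 monosomes and F8-F10 polysomes, and 3 transcriptomes (A, B and C) of smaller pools from the same batches accompanied each stage. A polysome pool below is the sum of F8, F9 and F10 of a gradient, which gives 2 pools per stage.

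Levels are CPM, counts scaled to the size of a library, here with TMM factors. Fraction libraries held 1229382 to 17342859 expected counts and transcriptomes 3269386 to 11812567, so the 3 counts taken as the floor for a gene came to between 0.0757 and 0.145 CPM in a pool and between 0.226 and 0.882 CPM in a transcriptome. Of the 120 fraction libraries, 6 stood apart from the other fractions of their stage, namely MII F10 B, 2-cell F1 A and F6 A, 8-cell F10 A, morula F9 A and blastocyst F1 B. Oocyte markers (ZP2, ZP3, ZP4, GDF9, BMP15, ZAR1 and NLRP5) summed to between 9254 and 21037 CPM in transcriptomes of GV, MII and 2-cell stages and to between 18.2 and 621 CPM later. Markers of the embryo after genome activation (CDX2, KRT8, KRT18, NANOG, POU5F1 and TEAD4) summed to between 40.2 and 95.5 CPM and then to between 272 and 5438 CPM. The 8 genes listed for cumulus and granulosa cells were FSHR, CYP19A1, HAS2, PTX3, TNFAIP6, AMH, LUM and VCAN. They summed to between 75.8 and 602 CPM in the transcriptomes of the first 3 stages. In 8-cell transcriptomes the sum was between 1293 and 9083 CPM, led by LUM at a mean of 3626 CPM, and later it was at most 45.4 CPM. The 8-cell polysome pools held between 139 and 287 CPM of these 8 genes. Their part in the changes at the 8-cell stage was not tested. In pooled material, a change in RNA per cell and a change in the cells that carry it cannot be told apart.

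The first question was how each member differed between the stages before and after major embryonic genome activation (EGA), which in cattle occurs around the 8-cell stage. Averaged over 8-cell, morula and blastocyst against GV, MII and 2-cell, PABPC1, PABPC4, PABPN1, PAIP2 and PAIP2B rose and PABPC1L and PAIP1 fell, both in the transcriptome and in the polysome pools. All 7 members passed the test (edgeR quasi-likelihood, Benjamini-Hochberg adjusted p below 0.05 and fold above 2) in the transcriptome, where 61.9% of all genes did, and all 7 passed it in the pools, where 60.4% did. The list was drawn with earlier results in view, so these counts do not set it apart from other genes. Over 27 alternatives in the transcriptome and 23 in the pools, every member kept its direction and its call in this comparison.

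**Figure D1:**
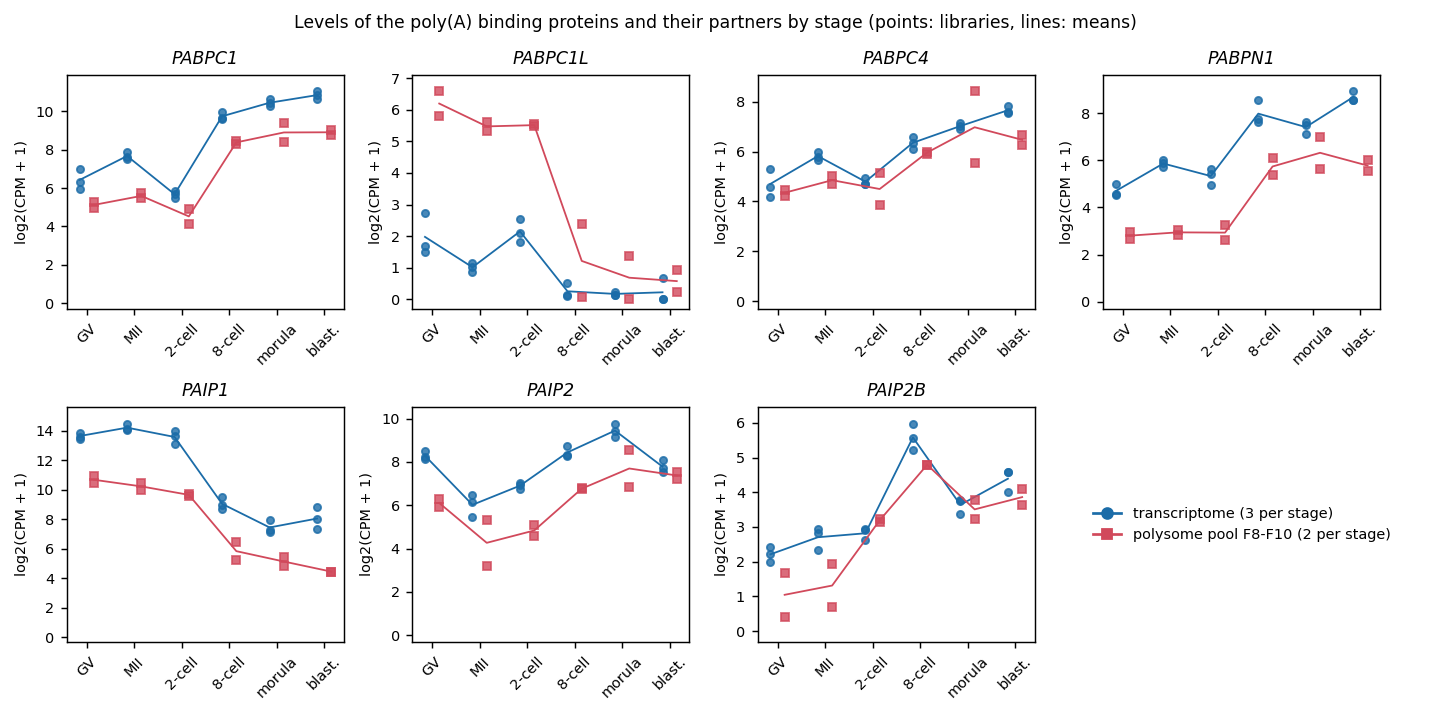
Levels of the 7 members as log2(CPM + 1) on the vertical axis against stage, with a point for each of the 3 transcriptomes (blue) and the 2 polysome pools (red) of a stage and lines through the means. PABPC1L and PAIP1 drop between 2-cell and 8-cell while the other 5 rise, and PABPC1L is the member whose pools lie above its transcriptomes from GV to 2-cell.

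PABPC1, the somatic form, was measured at 78.3, 125 and 61.7 CPM in the GV transcriptomes, at 232, 196 and 184 CPM in MII, and at 56.0, 51.2 and 44.0 CPM in 2-cell embryos. It then reached 783, 985 and 813 CPM in 8-cell embryos, 1221, 1399 and 1600 CPM in morulae, and 1598, 1865 and 2102 CPM in blastocysts. Every late library lay above every early one, and the blastocyst and morula ranges were the only neighbours in the order of stages that overlapped. Between the early and the late stages the transcriptome level rose by 3.76 ± 0.17 (SE) on the log2 scale (edgeR adjusted p = 4.7e-15), or 13.5-fold.

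The rise of PABPC1 was not monotonic. From GV to MII it rose 2.30-fold in the transcriptome (log2 fold change 1.204 ± 0.27, edgeR adjusted p = 0.00248), and from MII to 2-cell it fell by 2.02 ± 0.28 on the log2 scale (adjusted p = 2.71e-05), which left the 2-cell stage as its lowest. The step from 2-cell to 8-cell was 17.1-fold (log2 fold change 4.09 ± 0.31, adjusted p = 2.08e-10). On library totals without TMM factors the GV to MII rise was below 2-fold (log2 fold change 0.82), where the median of all genes in that contrast moved by -0.29.

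In the polysome pools PABPC1 stood at 37.4 and 30.4 CPM in GV, 51.7 and 43.1 CPM in MII, and 29.3 and 16.4 CPM in 2-cell embryos, then at 312 and 355 CPM at the 8-cell stage, 667 and 340 CPM for morulae, and 435 and 530 CPM for blastocysts. Early and late pools did not overlap. The late-minus-early difference of 3.70 ± 0.21 on the log2 scale (edgeR adjusted p = 3.54e-13) was close to that of the transcriptome, although each pool lay below all 3 transcriptomes of its stage.

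PABPC1L, the oocyte form, was scarce in the transcriptomes of all stages. Its levels were 5.62, 2.26 and 1.82 CPM in GV, 1.03, 1.22 and 0.833 CPM in MII, and 2.51, 3.28 and 4.81 CPM in 2-cell embryos. In 8-cell embryos they were 0.0857, 0.0896 and 0.435 CPM, which stand for 1, 1 and 5 counts, in morulae 0.0933, 0.179 and 0.108 CPM, and in blastocysts 0.588, 0 and 0 CPM. The early and late libraries did not overlap, and of the 9 late libraries only 8-cell C held more than 3 counts.

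The polysome pools gave a different picture of PABPC1L. They held 54.9 and 95.1 CPM in GV, 47.7 and 39.5 CPM in MII, and 43.7 and 45.6 CPM in 2-cell embryos, from 1105 to 3520 counts per pool. In 8-cell embryos gradient A held 0.0410 CPM, a single count, and gradient B 4.17 CPM. Morula pools held 0 and 1.58 CPM, and blastocyst pools 0.174 and 0.894 CPM. All 6 early pools thus lay far above all 6 late pools, and within each late stage gradient B lay above gradient A.

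Between early and late stages PABPC1L fell by 3.77 ± 0.77 (SE) on the log2 scale in the transcriptome (edgeR adjusted p = 0.000121) and fell by 5.74 ± 0.83 in the pools (adjusted p = 1.67e-06). With late libraries at or near 0 counts these fitted differences depend on the prior count, and over the alternatives they ranged from -5.31 to -3.54 and from -10.2 to -4.94. At the step from 2-cell to 8-cell the mean fell from 3.53 ± 1.17 to 0.203 ± 0.201 CPM (SD, n = 3) in the transcriptome and from 44.7 ± 1.32 to 2.11 ± 2.92 CPM (SD, n = 2) in the pools. Both falls passed the test, with adjusted p of 0.00728 and 0.0102.

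The exchange of the oocyte form for the somatic form was described by the ratio of PABPC1 to PABPC1L within a library, as log2 of (CPM + 1) for each, a score that is independent of library scaling apart from the pseudocount. In the polysome pools it was -0.54 and -1.61 in GV, 0.11 and 0.12 in MII, and -0.56 and -1.42 in 2-cell embryos. From the 8-cell stage, at 8.23 and 6.10, it stayed positive, with 9.38 and 7.05 for the morula pools and 8.54 and 8.13 for the blastocyst pools. In polysomes the ratio thus lay between -1.61 and 0.12 before EGA and above 6 log2 units in every pool after it.

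In the transcriptomes the ratio was positive in every library, with means of 4.44 ± 0.85 in GV, 6.66 ± 0.18 in MII, 3.53 ± 0.54 in 2-cell, 9.49 ± 0.34 at the 8-cell stage, 10.3 ± 0.19 for morulae and 10.6 ± 0.57 for blastocysts (SD, n = 3). The mean difference between late and early stages was 5.25 log2 units in the transcriptome and 8.56 in the polysome pools, and with a pseudocount of 0.1 it was 7.11 and 10.3, so its size depends on the pseudocount. No late library overlapped an early one in either kind of library. Transcript lengths were not used here, so a ratio of 0 does not mean equal numbers of molecules, and only its change between stages is compared.

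**Figure D2:**
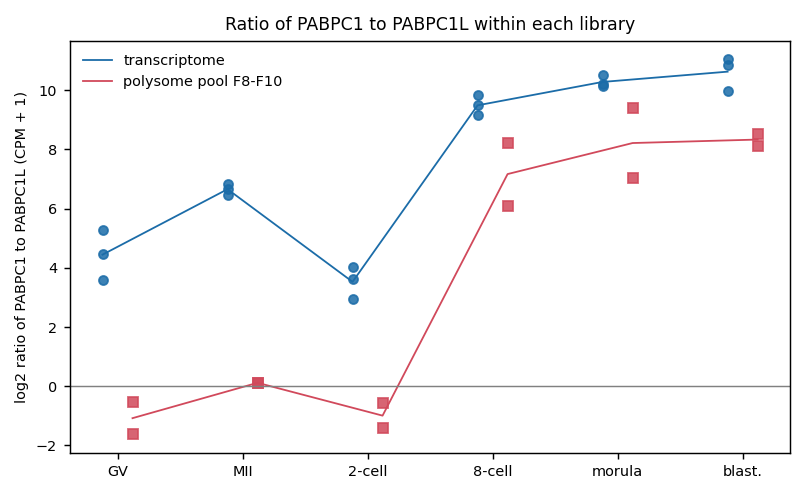
The log2 ratio of PABPC1 to PABPC1L (CPM + 1) within each library on the vertical axis, by stage, with points for transcriptomes (blue) and polysome pools (red) and lines through the means. The pools lie between -1.61 and 0.12 up to the 2-cell stage and between 6.10 and 9.38 from the 8-cell stage, while every transcriptome lies above 0.

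PABPC4, a cytoplasmic form also found in somatic cells, was measured at 23.2, 39.0 and 17.3 CPM in the GV transcriptomes and at 63.0, 50.2 and 53.9 CPM in MII. It stood at 25.2, 25.3 and 30.01 CPM in 2-cell embryos, and its means then went up from 81.3 ± 12.9 CPM in 8-cell embryos through 129 ± 11.96 CPM in morulae to 201 ± 20.1 CPM in blastocysts (SD, n = 3). The ranges of the 3 late stages did not overlap, but only the step from 2-cell to 8-cell passed the test in the transcriptome (log2 fold change 1.60 ± 0.45, edgeR adjusted p = 0.00474). The late-minus-early difference was 1.91 ± 0.26 on the log2 scale (adjusted p = 6.04e-07).

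In the pools PABPC4 rose from 13.6 and 34.0 CPM in 2-cell to 62.9 and 59.6 CPM in 8-cell embryos (log2 fold change 1.36 ± 0.54, adjusted p = 0.0425). The morula pools were far apart, at 340 CPM in gradient A and 45.3 CPM in gradient B, and the blastocyst pools held 76.7 and 100.1 CPM. The call from 8-cell to morula (log2 fold change 1.65 ± 0.55, adjusted p = 0.0212) rested on gradient A, and without that morula pool the value was -0.43. Morula F9 A, a library that stood apart, held 372 CPM of PABPC4, and without the libraries that stood apart the step was 1.16 with adjusted p = 0.0599. The 2-cell to 8-cell step was also close to the limit, with adjusted p = 0.0595 by DESeq2 and from 0.066 to 0.325 without 2-cell pool A, 8-cell pool A or 8-cell pool B. The step to morula was likewise lost without 8-cell pool A (adjusted p = 0.0703) or B (adjusted p = 0.0681). PABPC4 overlaps an uncharacterised locus and a small nucleolar RNA in the RefSeq annotation.

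PABPN1, the nuclear protein, stood at 21.9, 31.3 and 22.7 CPM in GV, 63.1, 58.5 and 50.9 CPM in MII, and 30.1, 41.5 and 48.4 CPM in 2-cell transcriptomes. It rose to 194, 378 and 217 CPM in 8-cell embryos, was 197, 178 and 137 CPM in morulae, and reached 485, 378 and 378 CPM in blastocysts. Late libraries lay above all early ones. The step from 2-cell to 8-cell was 6.58-fold (log2 fold change 2.72 ± 0.35, edgeR adjusted p = 8.52e-07), GV to MII was 2.27-fold (adjusted p = 0.0139), and morula to blastocyst was 2.42-fold (adjusted p = 0.00685). The GV to MII call was lost on library totals without TMM factors (adjusted p = 0.0988), and also without GV transcriptome A (adjusted p = 0.069) or C (adjusted p = 0.0614).

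In the pools PABPN1 was nearly level over the first 3 stages, with means of 6.02 ± 0.94, 6.71 ± 0.73 and 6.82 ± 2.37 CPM (SD, n = 2). It was 41.0 and 66.9 CPM in 8-cell embryos, 127 and 48.8 CPM in morulae, and 45.3 and 64.0 CPM in blastocysts. The 2-cell to 8-cell step was 7.91-fold (log2 fold change 2.98 ± 0.44, edgeR adjusted p = 8.03e-06), and the 3 late stages overlapped one another. PABPN1 overlaps BCL2L2 in the RefSeq annotation, and whether counting used strand is not given in the sources used here, so its counts could include reads of that neighbour.

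PAIP1, the activating partner, was among the most abundant entries of the whole table in the early transcriptomes. Its levels were 11165, 14682 and 12328 CPM in GV, 17852, 16924 and 21900 CPM in MII, and 16010, 12792 and 8680 CPM in 2-cell embryos, between 1.05% and 1.78% of all counts of a library, and its rank among all genes was 1 to 3 in each of these 9 libraries. They fell to 407, 493 and 713 CPM in 8-cell embryos, 239, 141 and 151 CPM in morulae, and 450, 157 and 255 CPM in blastocysts. The early and late ranges were separated by more than 10-fold. From 2-cell to 8-cell PAIP1 fell by 4.54 ± 0.40 on the log2 scale (edgeR adjusted p = 2.61e-09), and from 8-cell to morula by a further 1.60 ± 0.35 (adjusted p = 0.00296).

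In the pools PAIP1 fell from 1892 and 1393 CPM in GV, through 1011 and 1396 CPM in MII and 838 and 760 CPM in 2-cell, to 85.5 and 36.3 CPM in 8-cell embryos. It was 26.9 and 42.7 CPM in morulae and 20.7 CPM in both blastocyst pools. The late-minus-early difference was -5.04 ± 0.29 on the log2 scale in the pools (edgeR adjusted p = 3.88e-13) and -5.58 ± 0.24 in the transcriptome (adjusted p = 2.12e-15). A pseudogene and a long noncoding RNA overlap PAIP1 in the RefSeq annotation, so reads of these could be split with it.

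PAIP2, the inhibitor, followed another course. In the transcriptomes it was 283, 295 and 359 CPM in GV, fell to 86.9, 69.6 and 42.8 CPM in MII (log2 fold change -2.23 ± 0.42, edgeR adjusted p = 0.000393), and was 106, 130 and 121 CPM in 2-cell embryos. It was then 309, 426 and 315 CPM in 8-cell embryos, peaked at 572, 691 and 855 CPM in morulae, and fell again to 182, 211 and 273 CPM in blastocysts. The rise from 2-cell to 8-cell (log2 fold change 1.56 ± 0.41, adjusted p = 0.003) and the fall from morula to blastocyst (-1.67 ± 0.41, adjusted p = 0.00435) passed the test. GV libraries lay within the range of the late stages, so PAIP2 was the member whose early and late transcriptomes overlapped.

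The PAIP2 pools were at 60.2 and 76.1 CPM in GV, at 8.21 and 39.0 CPM in MII, and at 23.1 and 32.7 CPM in 2-cell embryos. They rose to 105 and 110 CPM in 8-cell embryos (log2 fold change 1.95 ± 0.51, edgeR adjusted p = 0.00339) and stood at 369 and 115 CPM in morulae and 146 and 186 CPM in blastocysts. The fall of the pools from GV to MII missed the limit (-1.53 ± 0.50, adjusted p = 0.0799), and the 2 MII pools were far apart. PAIP2 overlaps SLC23A1 in the RefSeq annotation.

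PAIP2B, the second inhibitor, was low in oocytes, with means of 3.67 ± 0.72 CPM in GV, 5.63 ± 1.41 CPM in MII and 6.09 ± 0.85 CPM in 2-cell transcriptomes (SD, n = 3). It peaked at 35.8, 61.6 and 46.4 CPM in 8-cell embryos and was 9.43, 12.7 and 12.5 CPM in morulae and 15.0, 23.0 and 23.0 CPM in blastocysts. The rise into the 8-cell stage (log2 fold change 2.97 ± 0.58, edgeR adjusted p = 0.00016) and the fall to morula (-2.05 ± 0.56, adjusted p = 0.013) passed the test. The second of these was lost without 8-cell transcriptome B (adjusted p = 0.0531) or morula transcriptome A (adjusted p = 0.0646).

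In the pools PAIP2B rose already from MII, at 2.85 and 0.608 CPM, to the 2-cell stage, at 7.84 and 8.43 CPM (log2 fold change 2.23 ± 0.69, edgeR adjusted p = 0.0438), and again to 26.6 and 26.7 CPM in 8-cell embryos (1.71 ± 0.67, adjusted p = 0.039). Morula and blastocyst pools held between 8.39 and 16.1 CPM. Both calls were near the limit, with adjusted p of 0.0563 and 0.0562 without the libraries that stood apart. Both were also lost without either 2-cell pool, that from MII without MII pool B, and that to the 8-cell stage without either 8-cell pool. The highest early pool lay just above the lowest late one, so the early and late pools of PAIP2B overlapped.

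The calls of the members were most numerous at the step into the 8-cell stage, as were those of all genes tested. In the transcriptome 3 of the 7 members changed during maturation from GV to MII (17.1% of all genes) and 1 between MII and 2-cell (12%). All 7 changed between 2-cell and 8-cell (50.1% of all genes). Of the later steps, that into the morula had 2 (14.4%) and that into the blastocyst 2 (21.6%). At the 2-cell to 8-cell step 5 members rose and 2 fell. That step also had the highest share of all genes called. When replicate C was left out at every stage, the calls of the maturation, morula and blastocyst steps were lost, with adjusted p between 0.0569 and 0.183.

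In the polysome pools 0 members changed during maturation (5.37% of all genes) and 1 between MII and 2-cell (8.51%). All 7 changed between 2-cell and 8-cell (46.3% of all genes). The step into the morula had 1 (36.2%) and that into the blastocyst 0 (13.9%). At the 2-cell to 8-cell step the same 5 rose and the same 2 fell as in the transcriptome. From GV to MII, where edgeR gave 0 calls, 1 member had an unadjusted p below 0.05 and DESeq2 called 1, PAIP2. From morula to blastocyst 1 member had an unadjusted p below 0.05 and DESeq2 called 0.

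The second question was whether the polysomes of a stage held more or less of a member than its transcriptome, called at an adjusted p below 0.05 with no limit on the fold. PABPC1, PABPN1 and PAIP1 were lower in the pools at all 6 stages, and PAIP2 was lower at every stage except the blastocyst. PABPC1L was higher in the pools from GV to the 8-cell stage. By the main edgeR quasi-likelihood fit PABPC4 did not pass the test at any stage, and PAIP2B was lower in MII. In GV the value of PAIP2B was -1.53 (edgeR adjusted p = 0.0614), and it was called lower there by DESeq2 (adjusted p = 0.0105) and by the likelihood ratio test (adjusted p = 0.0358).

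In GV oocytes 1 member was higher and 4 were lower in polysomes, against 39.8% of all genes called in either direction. The counts were 1 and 5 in MII (57.5% of all genes), 1 and 4 in 2-cell (51%), 1 and 4 at the 8-cell stage (59.1%), 0 and 4 for morulae (51.7%) and 0 and 3 for blastocysts (40.1%). Over the 6 stages 4 of 42 member tests were higher and 24 lower. Of all genes, the share called higher ran from 20% in blastocysts to 30.8% in MII. The share called lower ran from 17.7% in GV to 31% at the 8-cell stage. Whether the members differed from all genes in this balance was not tested. For PABPC4, where the main edgeR fit called 0 stages, DESeq2 called 2, both lower in the pools, with adjusted p of 0.0364 in MII and 0.0236 in blastocysts. In blastocysts edgeR also called it lower by the likelihood ratio test (adjusted p = 0.0497) and on library totals without TMM (quasi-likelihood adjusted p = 0.0152).

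For PABPC1L the log2 fold change of the pool over the transcriptome was 4.53 ± 1.15 (SE) in GV (edgeR adjusted p = 0.00288), 5.40 ± 1.21 in MII (adjusted p = 0.000573) and 3.66 ± 1.11 in 2-cell embryos (adjusted p = 0.00844). Both pools lay above all 3 transcriptomes at these stages. When replicate C was left out at every stage the GV value was 4.21 with adjusted p = 0.0522. In 8-cell embryos the value was 3.34 ± 1.25 (adjusted p = 0.0255), but 1 pool lay below every transcriptome, and without pool B it was -2.13 with adjusted p = 0.317. The call at this stage was also lost without 8-cell transcriptome A (adjusted p = 0.0826) or B (adjusted p = 0.0824).

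For PABPC1 the difference ran from -1.14 ± 0.31 in 2-cell embryos to -2.11 ± 0.33 in MII, with edgeR adjusted p between 7.07e-06 and 0.00403. The 2-cell call was lost without pool B of that stage (-0.79, adjusted p = 0.105). For PAIP1 it ran from -2.34 ± 0.43 in morulae to -3.97 ± 0.46 in MII, that is 5.08-fold to 15.7-fold lower in the pools. For PABPN1 it ran from -0.96 ± 0.38 in morulae (adjusted p = 0.0374) to -3.10 ± 0.42 in MII, and the morula call was lost without pool B (adjusted p = 0.394), without transcriptome A (adjusted p = 0.0961) or without transcriptome B (adjusted p = 0.0731).

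For PAIP2 the called differences lay between -1.49 ± 0.48 in MII and -2.20 ± 0.49 in GV. They were lost without pool A in MII (adjusted p = 0.162) and without pool B in morulae (adjusted p = 0.141). In blastocysts its difference was -0.42 ± 0.45 (adjusted p = 0.481). PAIP2B in MII differed by -1.70 ± 0.64 (adjusted p = 0.0275), a call lost without pool B (adjusted p = 0.254) or transcriptome A (adjusted p = 0.0607). For PABPC4 in morulae the 2 pools lay on either side of the transcriptomes, with values of 1.39 from pool A alone and -1.53 from pool B alone.

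**Figure D3:**
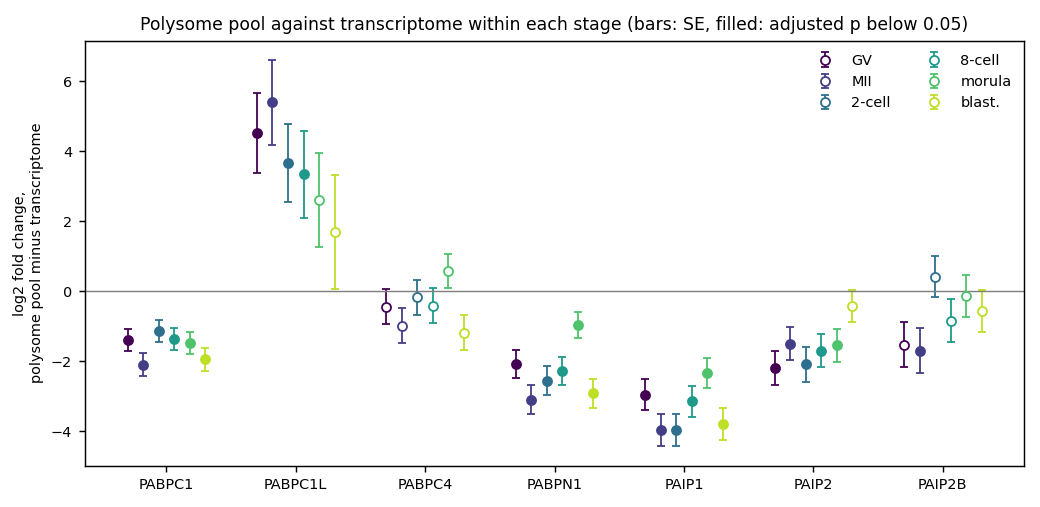
Log2 fold change of the polysome pool over the transcriptome on the vertical axis for each member, with 1 point for each of the 6 stages from GV (dark) to blastocyst (light), bars for the SE and filled symbols for edgeR adjusted p below 0.05. PABPC1, PABPN1 and PAIP1 lie below 0 at all 6 stages and PABPC1L above it, called up to the 8-cell stage.

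For PABPC1L and PAIP1 in GV and MII oocytes, these differences were not particular to polysomes. With the free RNA fractions F1-F2 pooled in place of F8-F10, PABPC1L was still higher than the transcriptome by 5.04 in GV and 4.80 in MII on the log2 scale, and the values for PAIP1 were -3.71 and -3.96. With F3-F5 the values were 4.34 and 5.07 for PABPC1L and -4.00 and -3.78 for PAIP1. In GV oocytes each of the 20 fraction libraries held more PABPC1L than all 3 transcriptomes, 34.3 to 137 CPM against 2.13 to 6.32 CPM with fractions and transcriptomes scaled together. In MII this held for 19 of 20 fraction libraries and in 2-cell embryos for 18.

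In the same way all 20 fraction libraries of every stage held less PAIP1 than the lowest transcriptome, with a highest fraction of 2351 CPM in GV against at least 12620 CPM. For PABPN1, too, all 20 lay below at all 6 stages. For PABPC1 it was 20 in GV, MII, 8-cell embryos and morulae, and 19 in 2-cell embryos and blastocysts. For PAIP2 it was 17 in MII and blastocysts and 20 at the other stages. The PABPC1 value in GV was -2.84 with F1-F2 and -2.39 with F3-F5, against -1.38 with F8-F10. In 8-cell embryos they were -3.62, -2.49 and -1.37. In blastocysts the order was the other way, at -0.996, -1.02 and -1.94. In morulae they were -1.60, -1.08 and -1.48. The higher value of PABPC1L in GV and MII, and the lower values of PAIP1 and PABPN1, were therefore not limited to F8-F10. The same held for PABPC1 and PAIP2 in the fraction libraries counted above. Levels still differed between fractions in places, as the trends given below show for PABPC1L in 2-cell and 8-cell embryos and for PAIP1 in GV. Among calls made with F8-F10, those not made with F1-F2 included PABPC1L in 2-cell embryos (2.01, adjusted p = 0.0574) and PABPC1 in blastocysts (-0.996, adjusted p = 0.0849).

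For PABPC4, which the main edgeR fit did not call in the polysome pools, the other pools were called at some stages. The log2 fold change of the F1-F2 pool over the transcriptome was -3.17 in GV (edgeR adjusted p = 0.00389), -3.54 in MII (adjusted p = 0.00163) and -2.61 in 8-cell embryos (adjusted p = 0.00941), against -0.45, -0.99 and -0.41 for F8-F10. It was not called in 2-cell embryos (adjusted p = 0.122), morulae (adjusted p = 0.309) or blastocysts (adjusted p = 0.189), while the F3-F5 pool was called lower at every stage except the morula. The difference between these pools was not tested outside the trend given below.

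The third question was whether the change of a member between consecutive stages differed between polysomes and transcriptome. Of the 7 members at 5 steps, 1 test passed an adjusted p below 0.05, PABPN1 from morula to blastocyst, where the transcriptome rose by 1.27 ± 0.33 and the pools gave -0.69 ± 0.41 on the log2 scale. The difference was -1.96 ± 0.53 (edgeR adjusted p = 0.0174), against 12.3% of all genes called at that step. Without morula pool A, which held 127 CPM against 48.8 CPM in pool B, it was -1.10 with adjusted p = 0.147, without blastocyst pool A -1.74 with adjusted p = 0.0792, and without the libraries that stood apart -1.50 with adjusted p = 0.0636.

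At the other 4 steps edgeR called 0 of the 7 members, where it called 10.6% of all genes for the maturation step, 1.81% between MII and 2-cell, 12.2% between 2-cell and 8-cell, and 12.5% for the morula step. An unadjusted p below 0.05 was given to 0, 2, 0 and 1 members, and DESeq2 called 0, 0, 0 and 1, the last being PABPN1 (adjusted p = 0.0422). For PABPC1 at the 2-cell to 8-cell step the difference was -0.23 ± 0.43 and for PAIP1 0.82 ± 0.55. For PABPC1L it was -0.32 ± 1.95, an error too wide to compare the fall in polysomes with that in the transcriptome.

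The last question was where in the gradient each member lay. The trend across F3 to F10 was taken as Spearman's rho of log2(CPM + 1) with the fraction number over the 16 libraries of a stage, with a two-sided permutation p adjusted over all genes with a mean of at least 1 CPM. Of 40 tests 5 rose and 1 fell. Between 0.817% and 16.9% of all genes rose at a stage, and between 0.782% and 19.8% fell. With 8 libraries of a single gradient most of the member trends were not called. PABPC1 in GV was lost without gradient A (rho = 0.79, adjusted p = 0.0979), PABPC1L in 2-cell embryos without gradient B (rho = 0.55, adjusted p = 0.466), and the other 4 without either. PABPC1L was below that mean in morulae and blastocysts and was not tested there.

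In GV oocytes 3 members rose toward the heavy fractions, where 16.9% of all genes rose and 36.7% had a trend in either direction. The 3 were PABPC1 (rho = 0.83, permutation adjusted p = 0.00155), PAIP1 (rho = 0.73, adjusted p = 0.00789) and PABPC4 (rho = 0.66, adjusted p = 0.0245). PABPC1 averaged 12.9 and 14.0 CPM in F3-F5 of gradients A and B and 36.2 and 29.1 CPM in F8-F10. Over F1 to F10 the trend of PAIP1 was not called (rho = 0.50, adjusted p = 0.0719). PAIP1 averaged 594 and 655 CPM in F3-F5 and 1833 and 1335 CPM in F8-F10. PABPC1L had no called trend (rho = 0.35, adjusted p = 0.3), with 57.3 and 46.5 CPM in F3-F5 and 53.4 and 89.8 CPM in F8-F10, and its highest values lay in F1 or F2 of both gradients.

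In MII oocytes 0 of 7 members had a trend (19.3% of all genes), with 0 at an unadjusted permutation p below 0.05 and 0 with ranks taken within gradients. Over F1 to F10 PABPN1 had a falling trend (rho = -0.63, adjusted p = 0.0379). MII F10 B, a library that stood apart, listed PABPC1L and PABPC4 at 0 and held 2.82 CPM of PABPC1. By contrast MII F10 A held 58.4 CPM of PABPC1, the highest value of PABPC1 in that gradient.

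In 2-cell embryos PABPC1L was the member that rose across the gradient (rho = 0.70, permutation adjusted p = 0.0236). Of all genes 9.66% rose at this stage and 20.4% had a trend in either direction. In gradient B it went from 24.6, 24.4 and 31.1 CPM in F3, F4 and F5 to 44.3, 33.0 and 44.6 CPM in F8, F9 and F10. In gradient A it went from 13.6, 17.9 and 30.8 CPM to 46.0, 28.8 and 45.3 CPM, with 0.777 CPM in F6, a library that stood apart. Both gradients thus held more PABPC1L in F8-F10 than in F3-F5 at this stage.

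In 8-cell embryos the direction of PABPC1L was the opposite (rho = -0.73, permutation adjusted p = 0.0184), against 16.6% of all genes with a trend. Gradient A held 32.0, 8.21 and 14.7 CPM in F3, F4 and F5 and 0, 0.103 and 0 CPM in F8, F9 and F10. Gradient B held 17.5, 6.10 and 31.9 CPM and then 6.97, 3.88 and 0.550 CPM. At this stage PABPC1L was therefore measured at higher CPM in F3-F5, with averages of 18.3 and 18.5 CPM, than in F8-F10. The transcriptomes held 0.511 CPM at most on the same scale. The highest value of gradient B was 32.8 CPM in F6. Each fraction was amplified by itself, so these values do not show where most of the RNA lay. With F1 and F2 included the trend was not called (rho = -0.31, adjusted p = 0.427). Both F1 libraries listed PABPC1L at 0, and F2 held 15.97 and 13.7 CPM.

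PAIP2 rose across the 8-cell gradients (rho = 0.66, permutation adjusted p = 0.0427), from 17.8 and 22.3 CPM in F3-F5 to 96.6 and 97.8 CPM in F8-F10. This call was close to the limit, with adjusted p = 0.0585 for ranks within gradients, 0.0503 without the filter on low levels, 0.0736 over F1 to F10 and 0.087 without the libraries that stood apart. PABPC1 at this stage averaged 137 and 154 CPM in F3-F5 and 278 and 320 CPM in F8-F10, but its trend did not pass (rho = 0.54, adjusted p = 0.12). Over F1 to F10 it was called (rho = 0.63, adjusted p = 0.0476), as was a falling trend of PAIP1 (rho = -0.74, adjusted p = 0.013).

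In morulae 0 of 6 members had a trend (1.6% of all genes) and in blastocysts 0 of 6 (7.56% of all genes), with 0 and 2 members at an unadjusted permutation p below 0.05. Those 2 were PABPC1 (rho = -0.60) and PABPN1 (rho = -0.56), and ranks within gradients gave 0 calls at either stage. PABPC1 in blastocysts averaged 701 and 860 CPM in F3-F5 and 341 and 411 CPM in F8-F10, so that F8-F10 made up 24.9% and 24.4% of its summed CPM over F3-F10, where they had made up 60.5% and 54.5% in GV oocytes. Whether this share differed between stages was not tested, and shares of CPM are not shares of molecules, since each fraction was amplified by itself. PABPC1L was listed at 0 in all 10 fractions of morula gradient A and in 8 of 10 fractions of each blastocyst gradient.

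**Figure D4:**
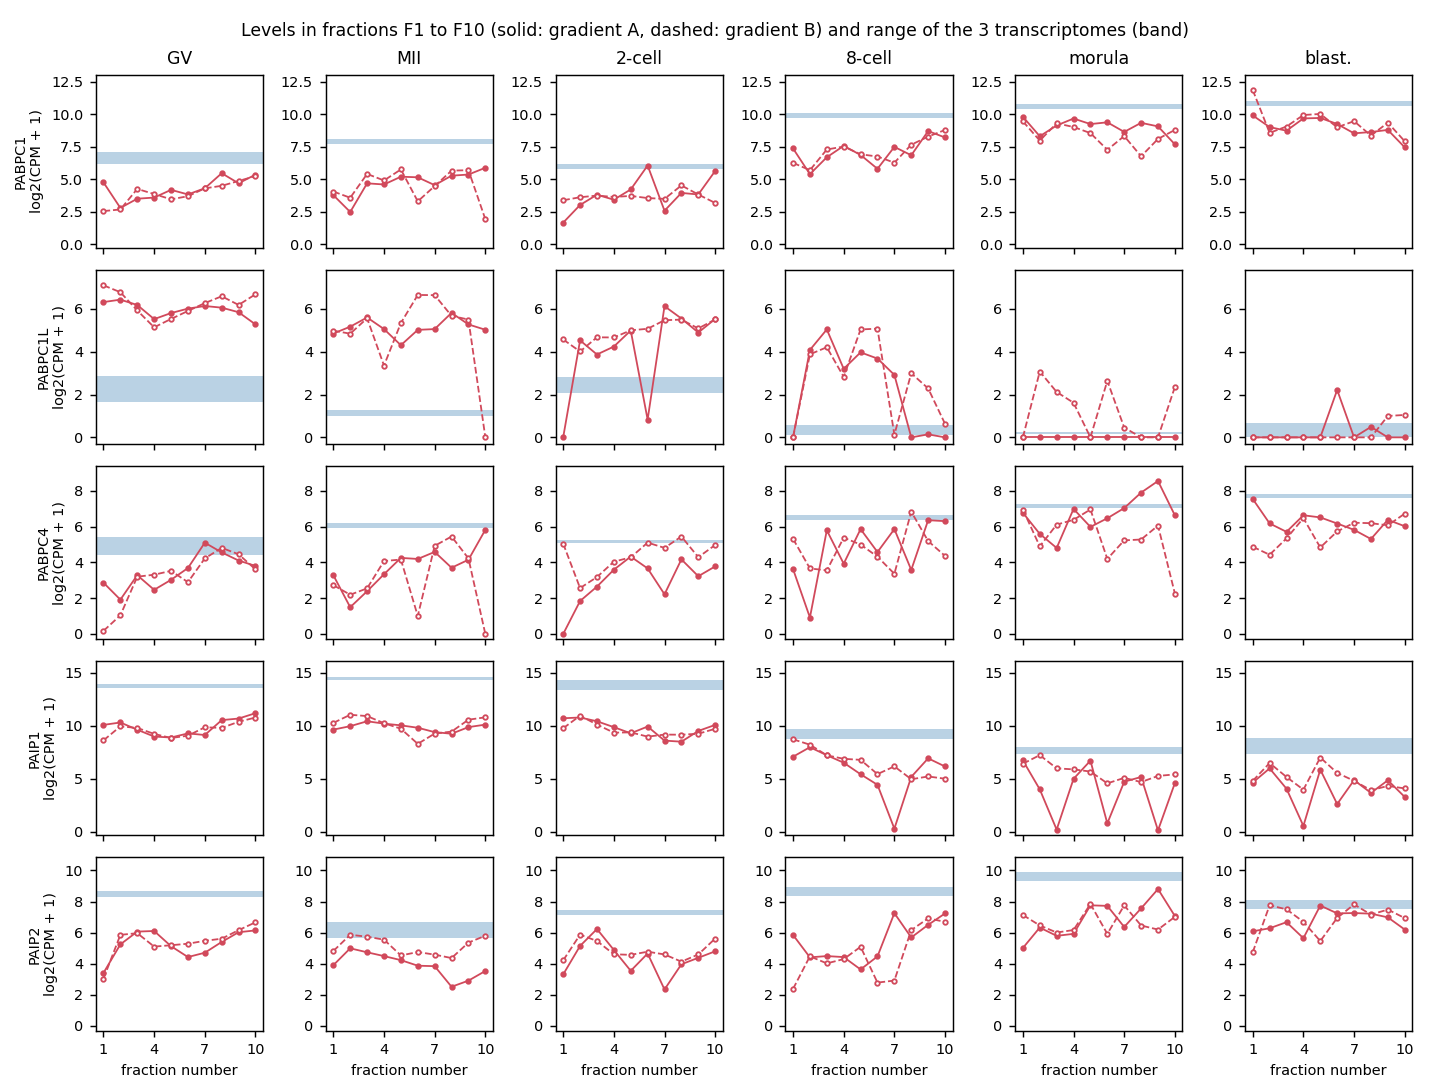
Levels of 5 members as log2(CPM + 1) against fraction number, F1 to F10, at each stage, for gradient A (solid, filled) and gradient B (dashed, open), with a band for the range of the 3 transcriptomes of the stage. PABPC1L lies above the band in nearly all early fractions, in 8-cell embryos it is highest between F3 and F6 and near 0 in F8-F10 of gradient A, and PAIP1 lies below the band at every stage.

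Other genes of the pathway were taken from 4 lists. Of the further poly(A) binding proteins 3 of 7 were in the table and 2 could be tested. The zinc finger protein ZC3H14 rose from 89.9 to 245 CPM between early and late transcriptomes (log2 fold change 1.35 ± 0.16, edgeR adjusted p = 8.08e-08), and PABPC5 fell from 3.04 to 0.922 CPM (-3.72 ± 1.03, adjusted p = 0.0032). The fitted value averages the stages on the log scale and depends on the prior count, since all 3 blastocyst transcriptomes listed PABPC5 at 0, while the 8-cell mean was 2.43 CPM. In the pools the same directions were called, at 2.21 ± 0.20 and -6.00 ± 1.15.

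Of 16 partners of PABPC1 in translation, 9 rose, 1 fell and 6 were not called in the transcriptome, against 61.9% of all genes called in either direction, with a median log2 fold change of 1.21 against 0.15 over all genes. In the pools 8 rose and 2 fell, against 60.4% of all genes called, with a median of 1.09 against -0.29. The share of the list that was called was thus near the background in both. The translation termination factor ETF1 rose from 12.2 to 414 CPM in the transcriptome (log2 fold change 5.07 ± 0.26, adjusted p = 2.87e-14) and by 6.34 ± 0.34 in the pools. LARP4, which binds poly(A) and PABP, rose by 2.66 ± 0.25, and the initiation factor EIF4B by 2.60 ± 0.20. The cap-binding factor EIF4E, named here as the 1 member of the list that fell, had a log2 fold change of -1.48 ± 0.13 (adjusted p = 2.41e-10), while in the pools its change was below the 2-fold limit (-0.40 ± 0.15, adjusted p = 0.0251).

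Of 7 partners in mRNA decay, 3 rose and 1 fell in the transcriptome (median 0.41), and 1 rose and 2 fell in the pools (median 0.28), where 61.9% and 60.4% of all genes were called. TNRC6B, a GW182 protein of microRNA silencing, fell in both (-2.10 ± 0.25 and -2.46 ± 0.31). TOB2, which links PABP to the CCR4-NOT deadenylase, rose in the transcriptome (1.91 ± 0.33) and was not called in the pools (0.69 ± 0.38), and so did TNRC6A (1.39 ± 0.23 and 0.28 ± 0.27). That they differed between the kinds of library was not tested for these genes.

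Of 13 genes of nuclear polyadenylation and PABPN1 partners, 2 rose, 2 fell and 9 were not called in the transcriptome (median 0.20), with the same counts in the pools (median -0.06), against 61.9% and 60.4% of all genes called. The poly(A) polymerase PAPOLG fell from 2490 to 222 CPM (log2 fold change -3.78 ± 0.16, edgeR adjusted p = 1.36e-15) and by -3.06 ± 0.19 in the pools. The cleavage factors CPSF1 (1.70 ± 0.35) and CPSF6 (1.34 ± 0.29) rose in the transcriptome, and in the pools CPSF6 rose (1.81 ± 0.36) while CPSF1 was not called (-0.36 ± 0.40).

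Across the 18 transcriptomes the genes whose log2(CPM + 1) was most like that of PABPC1 by Pearson's r were RPL9 (0.99), SLC25A3 (0.99), CBX3 (0.99), ARFGAP3 (0.98) and TMEM161B (0.98). Those most like PABPC1L were GPR3 (0.96), AMIGO1 (0.96), KLHL25 (0.96), CHST6 (0.95) and SLC1A2 (0.95). RPL9 stood at 11.6 to 72.7 CPM in early and at 539 to 1396 CPM in late transcriptomes, and GPR3, a receptor that keeps cyclic AMP high in oocytes, at 0.916 to 9.03 CPM and then at 0.294 CPM at most. These values are a description, given with no p, since the 18 libraries form early and late clusters that fix the sign of r for any gene that changed at EGA.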

How the data were processed

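Expected counts per gene, as the authors deposited them, were used for 138 libraries, 120 gradient fractions and 18 transcriptomes. The submitters' processing notes name Salmon, edgeR and the build UMD3.1, whereas the study's methods name Ensembl ARS-UCD1.2, and the Salmon version is not given in the sources used here. Of the values, 11.7% were not whole, and counts were rounded. All columns could be assigned to a sample (0 left over), and among 78 pairs of replicates 0 were identical.

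F8, F9 and F10 were summed per gradient, which gave 12 polysome pools of 22543737 to 39380638 counts. The 30 pools and transcriptomes entered a single edgeR 4.0.16 quasi-likelihood fit of 12 groups (TMM, filterByExpr, 14612 genes, Benjamini-Hochberg adjustment, limma 3.58.1, R 4.3.3). A change between stages was called at adjusted p below 0.05 and fold above 2, and every other comparison at adjusted p below 0.05. Fractions were scaled over all 138 libraries, so their CPM differ slightly from those of the 30. Trends used 100000 permutations, adjusted over genes with a mean of at least 1 CPM (Python 3.11.15, numpy 2.4.6, pandas 2.3.3, scipy 1.17.1, figures by matplotlib 3.10.9). DESeq2 1.42.0, edgeR's likelihood ratio test, other scalings, no filter, other pools, a replicate block and the omission of each replicate or library were alternatives. The procedures were tested on simulated data.

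The study calls the gradients of a stage biological replicates and describes its 3 transcriptomes as pools from the same batch, so p-values cover the spread between these samples. Floors cover counting error only. A library stood apart when its median correlation with the other fractions of its stage was more than 0.1 below the stage median. Transcript lengths were not used, so levels are not compared between genes. How reads of overlapping genes or near-identical copies were split is not given in the sources used here.

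The members and lists were chosen with earlier results of these data known. The genes named are all 7 members, the 5 genes with the highest Pearson's r to PABPC1 and to PABPC1L over the 18 transcriptomes, and from each other list the 3 genes with the largest absolute log2 fold change among those called between late and early transcriptomes. EIF4E was named after its values were seen. PABPC1L2A, PABPC1L2B, PABPC3 and PABPN1L had no entry under these symbols in the count table. PABPC4L had an entry but did not pass the filter on low counts.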

Additional observations from a re-analysis of the deposited data

Results flagged for a closer look

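The change of PABPN1 from morula to blastocyst differed between polysome pools and transcriptomes, by a test of the difference itself (log2 difference -1.96 ± 0.53, edgeR adjusted p = 0.0174). The 3 transcriptomes went from between 137 and 197 CPM in morulae to between 378 and 485 CPM in blastocysts, while the pools went from 127 and 48.8 CPM to 45.3 and 64.0 CPM. The value lost its call without morula pool A (-1.10, adjusted p = 0.147), and morula pool A contains F9 A, a library that stood apart from its stage.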

How the results depend on the processing

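The late-minus-early direction and call of all 7 members held under every alternative run. Over all single tests of a member, these included, the alternatives other than the omission of 1 replicate or library left 1530 unchanged and made 45 stronger and 32 weaker, and the omissions left 1505 unchanged, made 67 stronger and 59 weaker and turned 9. The cause was not tested in any case. Those 9 belonged to 6 results, whose omissions of a replicate or library spanned 0. For PABPC4 the range was -1.53 to 1.39 in pool against transcriptome of morulae (-1.45 without replicate A, -1.53 without morula pool A), -0.43 to 2.49 in the pools between 8-cell and morula (-0.39 and -0.43 for the same omissions), and -2.14 to 1.14 between morula and blastocyst (1.14 without replicate A). For PABPC1L in pool against transcriptome of 8-cell embryos it was -2.45 to 4.50 (-2.45 without replicate B, -2.13 without 8-cell pool B). For PAIP2B between GV and MII it was -1.85 to 3.09 in the pools (-1.85 without replicate A) and -2.19 to 2.37 for the difference between pools and transcriptome (2.37 without replicate B).

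Member calls higher at the later stage in polysomes went from 7 to 4 with the libraries that stood apart left out, an alternative chosen after seeing the data, and to 4 with the replicate block. Calls lower at the later stage in polysomes went from 2 to 4 by the likelihood ratio test, 5 by DESeq2, 5 on library totals, 4 with F6-F10 pooled and 4 without the libraries that stood apart. The calls for a different change in pools and transcriptome went from 1 to 2 by DESeq2, and falling trends from 1 to 2 over F1 to F10. The ratio of PABPC1 to PABPC1L moved from 5.25 to 7.11 in transcriptomes and from 8.56 to 10.3 in pools with a pseudocount of 0.1.

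With a replicate or library left out, calls ranged from 4 to 11 for higher and 2 to 9 for lower at the later stage in polysomes, 5 to 11 and 3 to 9 in the transcriptome, 2 to 6 higher and 21 to 28 lower in polysomes than in the transcriptome, 0 to 8 for a different change, 1 for rising and 0 for falling trends.

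Whether a replicate letter marks the same batch in pools and transcriptomes is not given in the sources used here. Deviations of the pool and the transcriptome of a letter correlated at -0.07 to 0.04 over 12 pairs. Between consecutive stages, transcriptomes of a letter gave -0.35 to 0.13 and pools -0.07 to 0.05. These values cannot decide the pairing, since the deviations of the 2 pools of a stage mirror each other. With the replicate block, 4 calls were lost, PABPC1L in pool against transcriptome of 8-cell embryos (2.98, adjusted p = 0.0689), PAIP2B in the pools from MII to 2-cell (2.17, adjusted p = 0.0717) and from 2-cell to 8-cell (1.72, adjusted p = 0.0503), and PABPC4 in the pools from 2-cell to 8-cell (1.35, adjusted p = 0.0587), and 157 tests did not change. Library totals in place of TMM moved the median of all genes by up to 0.46 on the log2 scale, in the transcriptome from MII to 2-cell. At 0 to 5 counts per late transcriptome, depth limits what can be said of PABPC1L there.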
